A study of Homo sapiens with 4 samples.

Results

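SK-MEL-28 and A375, both established human melanoma cell lines, were compared by RNA-Seq with 2 libraries each, which are all 4 libraries of the series. In each line 1 library came from cells transfected with a control siRNA (siNC) and 1 from cells transfected with an siRNA against the long noncoding RNA LINC00622 (siLINC00622). All cells were kept without serum for 6 h during transfection and then for 24 h in medium with serum. Members were chosen by the cell line label alone, and the tissue label of the samples reads melanoma tissue although the cell line tag names a line for every library. The comparison covered 16310 of the 17755 listed genes, those with at least 10 counts in at least 2 libraries, and the treatment was kept as a term of the model. Each line had 1 library per treatment and the labels name no separate cultures, so p-values measure only the residual spread between these libraries, and an exact permutation test of 2 against 2 libraries cannot go below p = 0.333. In bulk RNA, fewer cells in a state and less RNA of a gene per cell cannot be told apart.

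Melanoma cells are known to occupy states that range from differentiated to dedifferentiated. In the differentiated state the transcription factor MITF, together with SOX10, drives the genes of the melanosome, the organelle in which the enzymes TYR, TYRP1 and DCT make melanin. In the dedifferentiated, invasive state MITF and its targets are low. The receptor tyrosine kinase AXL, the secreted ligand WNT5A, EGFR and many matrix and cytoskeletal genes are high in that state. Neural crest-like cells additionally carry the nerve growth factor receptor NGFR.

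Libraries held 31269923 and 36384819 counts in A375 and 33110470 and 34164676 counts in SK-MEL-28, so depth differed little between the lines. The siRNA target LINC00622 had 135 and 86 counts in the siNC and siLINC00622 libraries of A375 and 309 and 135 counts in those of SK-MEL-28, lower after siLINC00622 in both lines. Of the 19 markers written for keratinocytes, fibroblasts, immune cells and endothelium, 6 were listed in the table, and their summed level was 92.7 and 103 normalised CPM (counts scaled by TMM to a common library size) in A375 and 71.2 and 74.6 in SK-MEL-28. Of these 6, KRT14, a basal keratinocyte keratin, PDGFRB, a receptor of mesenchymal cells, and KDR, an endothelial receptor, were read at 7.65 to 14.8 normalised CPM in A375 and at 0.0623 to 0.255 in SK-MEL-28. The fibroblast marker LUM went the other way, at 5.59 and 9.75 in A375 and 25.6 and 27.8 in SK-MEL-28, and KRT10 was at 50.9 and 54.2 against 43.3 and 44.6. The epithelial marker EPCAM was at 1.43 to 1.84 in all libraries, and the part of these markers in the results was not tested. The marker genes PTPRC, COL1A1, PECAM1 and KRT5 were among the 13 not analysed here.

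The promoters of the 3 melanin-synthesis enzymes are shown because their genes separated the lines in different ways, TYR 559-fold, DCT 569-fold and TYRP1 12.4-fold higher in SK-MEL-28 but low in both lines. Each run is the 250 bases before the annotated start in RefSeq (GRCh38.p14), read 5′ to 3′ on the gene's strand, with the M-box core CATGTG or its reverse complement CACATG in capitals, the letters within which MITF is known to bind. TYR was read from chr11:89177625-89177874 (+), TYRP1 from chr9:12693135-12693384 (+) and DCT from chr13:94479683-94479932 (−).
TYR: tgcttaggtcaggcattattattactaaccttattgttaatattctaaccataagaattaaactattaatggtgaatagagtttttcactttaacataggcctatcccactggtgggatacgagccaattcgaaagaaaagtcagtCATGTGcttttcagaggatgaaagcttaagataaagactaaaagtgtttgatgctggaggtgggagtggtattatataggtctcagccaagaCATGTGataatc
TYRP1: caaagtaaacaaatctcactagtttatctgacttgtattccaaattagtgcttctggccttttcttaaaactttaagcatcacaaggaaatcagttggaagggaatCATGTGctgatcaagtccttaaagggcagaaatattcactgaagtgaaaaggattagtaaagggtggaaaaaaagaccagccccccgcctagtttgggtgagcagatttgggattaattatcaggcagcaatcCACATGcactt
DCT: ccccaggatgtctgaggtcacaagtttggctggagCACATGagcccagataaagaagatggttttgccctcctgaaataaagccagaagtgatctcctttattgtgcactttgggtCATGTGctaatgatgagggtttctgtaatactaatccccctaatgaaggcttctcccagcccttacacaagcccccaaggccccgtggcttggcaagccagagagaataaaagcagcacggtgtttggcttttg

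The core began 104 and 12 bases before the start of TYR, 144 and 11 bases before that of TYRP1, and 215 and 134 bases before that of DCT. A promoter was found for 25 of the 31 tested pigment genes, and 13 of these 25 (52.0%) held CATGTG or CACATG in the window of at least 1 start, against 918 of 10658 tested genes with a promoter (8.61%) and 3307 of all 35116 promoters (9.42%). The palindromic E-box CACGTG was in the window of 5 of the 25, against 11.2% of tested genes and 6.34% of all promoters. CATGTG or CACATG was in 14 of 41 proliferative genes with a promoter (34.1%) and in 4 of 31 invasive ones (12.9%), 2 gene lists described later. A match marks letters only and shows no binding.

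The 4 markers separated the lines in the directions of a differentiated SK-MEL-28 and a dedifferentiated A375 for MITF, TYR and AXL, but not for SOX10. MITF was read at 35.3 and 33.8 normalised CPM in A375 (siNC and siLINC00622, in this order throughout) and at 603 and 570 in SK-MEL-28, 17.0-fold higher in SK-MEL-28 (log2 difference 4.09 ± 0.09 SE, adjusted p = 3.89e-07, edgeR's quasi-likelihood test). TYR, the rate-limiting enzyme of melanin synthesis, stood at 0.508 and 0.577 in A375 and at 285 and 326 in SK-MEL-28, a log2 difference of 9.13 ± 0.14. AXL ran the other way, with 480 and 484 in A375 and 4.42 and 3.02 in SK-MEL-28, a log2 difference of −7.03 ± 0.16. For these 3 genes the libraries of one line lay far from both libraries of the other, whichever siRNA was used. SOX10, the neural crest factor that acts upstream of MITF, was high in both lines, at 452 and 579 in A375 and 657 and 653 in SK-MEL-28. Its log2 difference of 0.36 ± 0.10 passed the threshold (adjusted p = 0.0199, edgeR) but lost its call in 8 of 14 alternative analyses, and was 0.18 without the A375 siNC library (adjusted p = 0.313, edgeR) and 0.54 without the A375 siLINC00622 library. On the length-scaled FPKM values SOX10 was the most abundant of the 23 listed lineage factors in both lines, with a mean of 133 in A375 and 151 in SK-MEL-28.

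**Figure D1:**
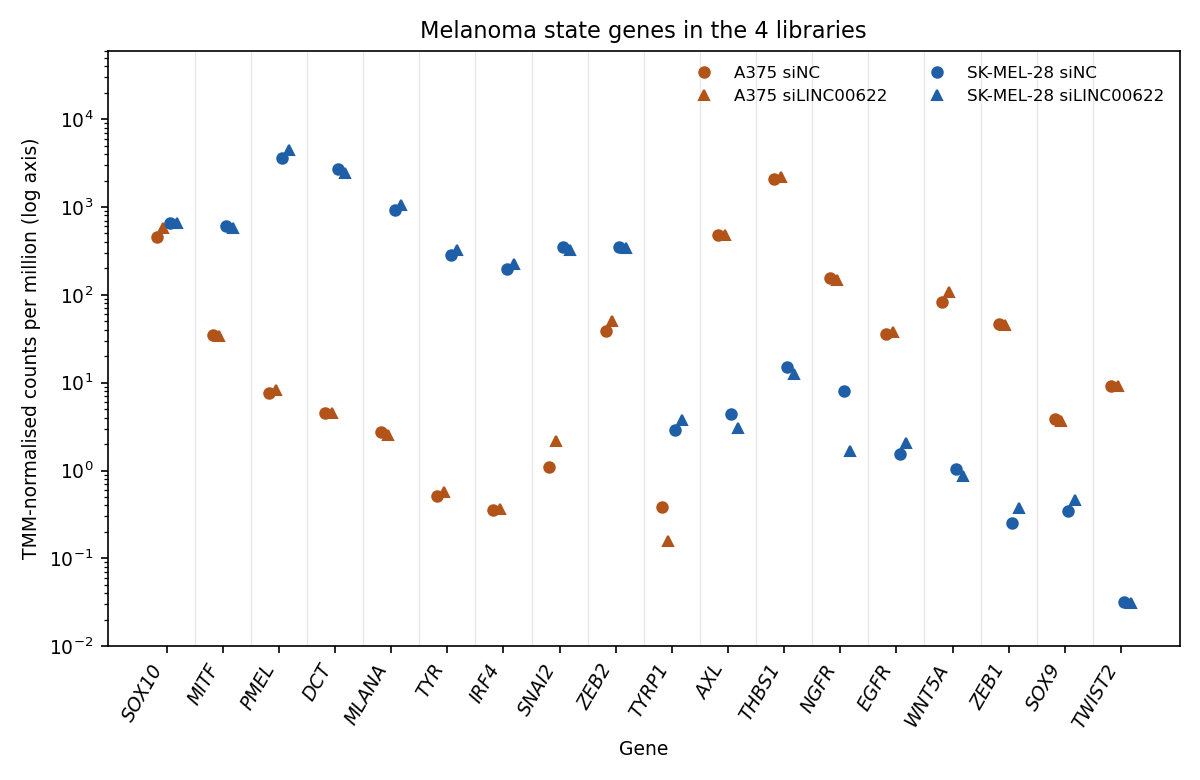
TMM-normalised CPM (log axis) of 18 state genes in each of the 4 libraries, A375 in orange, SK-MEL-28 in blue, circles siNC and triangles siLINC00622. SOX10 sits between 452 and 657 in all libraries, MITF and the pigment genes are higher in both SK-MEL-28 libraries, and AXL, THBS1, NGFR, EGFR, WNT5A, ZEB1, SOX9 and TWIST2 are higher in both A375 libraries.

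The lines differed widely, so a count of called genes has to be read against the whole table. At an adjusted p below 0.05, 11222 of 16310 genes (68.8%) were called, 5512 (33.8%) higher and 5710 (35.0%) lower in SK-MEL-28. Calls of at least 2-fold numbered 2892 higher (17.7%) and 3133 lower (19.2%), and calls of at least 16-fold numbered 574 higher (3.52%) and 988 lower (6.06%). The median log2 difference over all genes was −0.03, and 14692 of 16302 genes, leaving out 8 not reported here, differed in the same direction in the siNC and the siLINC00622 pair. The median gap between the log2 differences of the 2 pairs was 0.21.

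Lineage regulators went both ways, with 14 of 23 (60.9%) called higher and 8 (34.8%) called lower in SK-MEL-28. Over all genes these shares were 33.8% and 35.0%, so the share called lower was near that of all genes. IRF4, a partner of MITF in melanocytes, was read at 0.359 and 0.367 in A375 and at 197 and 221 in SK-MEL-28 (log2 difference 9.16). SNAI2, a zinc-finger factor of the neural crest and melanoblast, stood at 1.11 and 2.15 in A375 and 351 and 327 in SK-MEL-28 (7.69). ZEB2, which marks the differentiated side of the ZEB pair, was read at 39.0 and 50.4 in A375 and 354 and 337 in SK-MEL-28 (2.96). Its counterpart ZEB1 was at 46.2 and 45.5 in A375 and 0.255 and 0.374 in SK-MEL-28 (−7.17), and TWIST2 had 310 and 348 counts in A375 and 1 count in each SK-MEL-28 library. Of the EMT-inducing factors, SNAI2 and ZEB2 were thus higher in SK-MEL-28 and ZEB1 and TWIST2 in A375, where SNAI1 (−2.47) was higher too. PAX3 (1.66), TFAP2A (2.23), LEF1 (2.25) and SOX6 (2.78) were also higher in SK-MEL-28, while TFAP2C (−2.63), TBX3 (−2.0), SOX9 (−3.17) and SOX2 (−3.96) were lower. SOX9 was low in both lines, at 3.83 and 3.62 in A375 and 0.350 and 0.468 in SK-MEL-28. Of the MITF relatives, TFE3 was lower in SK-MEL-28 (−1.14) and TFEB, read at 1.23 to 4.39 in every library, was higher (1.31), a call lost in 5 of 14 alternatives, among them the fit without the SK-MEL-28 siLINC00622 library (0.77).

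Pigment genes were nearly uniformly higher in SK-MEL-28, with 28 of 31 tested members called higher, 2 lower and 1 not called. Of these, 25 passed at least 2-fold and 12 at least 16-fold higher, against 17.7% and 3.52% of all genes, and the list's median log2 difference was 2.96. PMEL, the protein of the melanosome's fibrils, was read at 7.68 and 8.23 in A375 and at 3638 and 4432 in SK-MEL-28 (8.98 ± 0.11). DCT stood at 4.54 and 4.48 in A375 and 2713 and 2435 in SK-MEL-28 (9.15), and MLANA, a melanosomal antigen, at 2.75 and 2.52 in A375 and 932 and 1060 in SK-MEL-28 (8.56). The 5 genes TYR, TYRP1, DCT, PMEL and MLANA together made up 0.00170% and 0.00167% of the A375 counts, against 0.718% and 0.775% for SK-MEL-28. The transporters SLC45A2 (8.69), OCA2 (7.87) and SLC24A5 (9.58), the melanosome receptor GPR143 (7.83) and the channel TRPM1 (9.08) were higher by a similar size. TRPM1 also differed within SK-MEL-28, at 172 and 499, and its log2 difference was 7.79 in the siNC pair and 10.2 in the siLINC00622 pair. Genes that move melanosomes along the cytoskeleton followed, with RAB27A at 5.01, MLPH at 5.91 and MYO5A at 1.91.

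TYRP1 stood out among the melanin enzymes by its level. It had 13 and 6 counts in A375 and 92 and 122 in SK-MEL-28, that is 2.93 and 3.80 normalised CPM in the line in which DCT reached 2713. Its log2 difference was 3.64 ± 0.39 (adjusted p = 0.000198, edgeR), 2.91 in the siNC pair and 4.60 in the siLINC00622 pair. Per length, SK-MEL-28 had a mean FPKM of 1037 for PMEL, 322 for DCT and 314 for MLANA, the 3 highest of the list, against 0.744 and 0.956 FPKM for TYRP1 in its 2 libraries. The melanocortin receptor MC1R (2.24) and the endothelin receptor EDNRB (2.95) were higher in SK-MEL-28. GPNMB, a melanosomal glycoprotein, was the highest member of the list in A375 per length, with a mean FPKM of 38.3, and was still higher in SK-MEL-28 (2.58). The lysosome-related organelle subunit BLOC1S1 was not called (−0.35), and HPS6 (−0.53) and the cystine transporter SLC7A11 (−0.78) were lower in SK-MEL-28.

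The 2 melanoma state signatures divided the lines almost without exception. All 54 genes of the proliferative, MITF-high signature were called higher in SK-MEL-28 by at least 2-fold, 31 of them by at least 16-fold, with a median log2 difference of 4.59. Of the 42 tested genes of the invasive, MITF-low signature, 41 were called lower in SK-MEL-28 and 1 was not called. Their calls reached at least 2-fold in 39 and at least 16-fold in 22, with a median of −4.26. Among all genes, 17.7% were called at least 2-fold higher and 19.2% at least 2-fold lower. At 16-fold these shares were 3.52% and 6.06%. Both lists were written with earlier results of these data known, and 12 of the proliferative genes are also on the pigment list. Outside the pigment genes, the proliferative list was led by IRF4, described above, ADCY2, an adenylate cyclase (9.10), MBP, a myelin protein (8.70), BIRC7, an inhibitor of apoptosis (8.32), GPM6B (7.32), APOE, a lipid carrier (7.21), and GYG2 (7.12). MBP was read at 2.18 and 1.91 in A375 and 711 and 1002 in SK-MEL-28, and APOE at 1.11 and 1.28 in A375 and 162 and 194 in SK-MEL-28. RRAGD, a GTPase of amino acid sensing and a member of this list, was read at 15.4 and 6.13 in A375 and at 106 and 22.8 in SK-MEL-28. Its log2 difference was 2.38 over both pairs, 2.78 in the siNC pair and 1.89 in the siLINC00622 pair. RRAGD was not called without the A375 siLINC00622 library (2.06) and fell to 1.10 without the SK-MEL-28 siNC library. These fits have no treatment term and so compare unequal treatments.

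Among the lowest of the invasive list in SK-MEL-28 were CDH13, an adhesion molecule without a cytoplasmic tail (−7.52), THBS1, a matrix glycoprotein (−7.30), ZEB1, AXL, PODXL (−6.96), the potassium channel KCNMA1 (−6.93) and WNT5A (−6.63). THBS1 was read at 2103 and 2207 in A375 and 14.9 and 12.5 in SK-MEL-28, and WNT5A, a ligand of noncanonical WNT signalling, at 83.9 and 108 in A375 and 1.05 and 0.873 in SK-MEL-28. Both libraries of A375 exceeded both of SK-MEL-28 for each of these genes. TRAM2, a translocon-associated protein, was the member not called, at 174 and 172 in A375 and 191 and 132 in SK-MEL-28 (−0.13, adjusted p = 0.412, edgeR). Within the siNC pair and the siLINC00622 pair taken alone, the list's medians were −3.98 and −4.71, and those of the proliferative list were 4.60 in both.

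**Figure D2:**
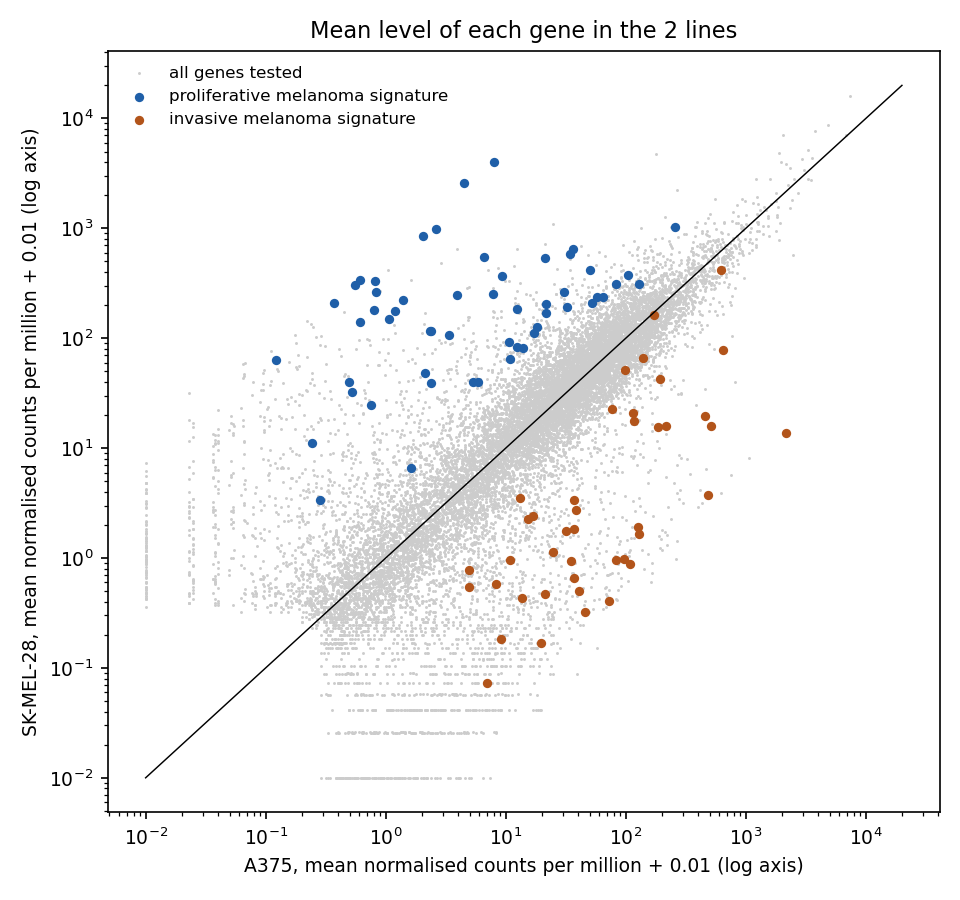
Mean TMM-normalised CPM of each tested gene in A375 (horizontal, log axis) and SK-MEL-28 (vertical, log axis), with a small constant added so that genes at 0 can be drawn, and the diagonal marking equal levels. The 54 proliferative genes lie above the diagonal and the 42 invasive genes lie below it, TRAM2 close to it.

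Neural crest-like genes did not side with 1 line. Of 18 tested members 8 were called higher and 10 lower in SK-MEL-28, against 33.8% and 35.0% of all genes. NGFR was read at 157 and 147 in A375 and at 7.99 and 1.68 in SK-MEL-28, a log2 difference of −5.14 that ranged from −6.48 to −4.26 when single libraries were left out. The intermediate filament gene NES stood at 267 and 294 in A375 and 4.23 and 4.05 in SK-MEL-28 (−6.08), and the synaptic adhesion gene SLITRK6 was at −7.15. In SK-MEL-28, the nuclear receptor RXRG was higher, at 62.2 and 60.7 against 1.34 and 1.70 (5.33), as was the glial gene S100B (4.27). Genes used to name a neural crest-like state thus stood high in different lines, NGFR and NES in A375 and RXRG and S100B in SK-MEL-28.

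Receptor tyrosine kinases were mostly lower in SK-MEL-28, with 18 of 28 tested members called lower, 7 higher and 3 not called. Over all genes 35.0% were called lower and 33.8% higher. Calls of at least 16-fold lower numbered 9 of 28, against 6.06% of all genes, and calls of at least 16-fold higher numbered 2. EPHA2, an ephrin receptor, was read at 437 and 394 in A375 and 4.68 and 3.55 in SK-MEL-28 (−6.66). The collagen receptors DDR1 (−6.68) and DDR2 (−4.68), EGFR (−4.35), PDGFRB (−6.88), EPHA7 (−7.21) and MET (−2.01) were also lower. EGFR was read at 35.6 and 37.9 in A375 and 1.56 and 2.06 in SK-MEL-28. Within the TAM family the members divided, since MERTK stood at 0.568 and 0.812 in A375 and 40.5 and 73.2 in SK-MEL-28 (6.35), AXL ran opposite to it, and TYRO3 was at 57.5 and 61.4 in A375 and 71.7 and 95.1 in SK-MEL-28 (0.48, a call lost in 6 of 14 alternatives, among them the fit without the SK-MEL-28 siLINC00622 library at 0.26). EPHA5 (7.40), EPHA4 (2.23) and ALK (2.42) were the other large differences upward. Per length, the highest kinases were EPHA2 and AXL in A375, with mean FPKM of 106.5 and 99.5, and ERBB3 and MERTK in SK-MEL-28, with 13.8 and 11.7. ERBB3, a neuregulin receptor of melanocytes, had a mean FPKM of 29.9 in A375 and was lower in SK-MEL-28 (−0.95).

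Classical EMT markers gave no single direction. Of 25 tested cadherin and mesenchymal genes, 9 (36%) were called higher, 11 (44%) lower and 5 not called, near the 33.8% and 35.0% of all genes. Their median log2 difference was −0.01. Vimentin (VIM) was read at 844 and 858 in A375 and 986 and 725 in SK-MEL-28 (−0.01 ± 0.12), and SPARC, a matricellular protein, at 1269 and 1682 in A375 and 1392 and 1519 in SK-MEL-28 (−0.01 ± 0.09), so that the libraries of the lines overlapped. The neural cadherin CDH2 was lower in SK-MEL-28, at 52.9 and 31.9 against 124 and 133 (−1.64). The epithelial cadherin CDH1 was at 2.0 and 1.23 in A375 against 7.93 and 5.24 in SK-MEL-28 (2.03), and the placental cadherin CDH3 was higher as well (4.03). CD44 (−1.50), NCAM1 (−4.73) and TGFBI (−2.27) were lower in SK-MEL-28.

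The extracellular matrix differed in composition, with 21 of 31 tested genes called lower in SK-MEL-28 and 5 higher, and 11 lower by at least 16-fold. Over all genes these shares were 35.0%, 33.8% and 6.06%. Fibronectin (FN1) was read at 198 and 163 in A375 and 5714 and 3864 in SK-MEL-28 (4.71 ± 0.10), and was second only to SPARC among matrix genes of SK-MEL-28 per length, with a mean FPKM of 263. LAMA1, a laminin chain of basement membranes, was at 11.4 and 12 in A375 and 435 and 480 in SK-MEL-28 (5.29), and COL11A1, a fibrillar collagen, at 0.896 and 1.18 in A375 and 99.1 and 95.8 in SK-MEL-28 (6.54). The basement membrane collagens COL4A1 and COL4A2 went the other way, COL4A2 at 628 and 611 in A375 and 3.88 and 3.87 in SK-MEL-28 (−7.32). LAMA5 (−6.57), BGN (−6.44), COL5A2 (−5.95) and COL12A1 (−5.30) were also lower. Of 18 integrins tested, 10 were called lower and 6 higher in SK-MEL-28, and 3 higher without the A375 siNC library. On the lower side were the laminin receptor chains ITGB4 (−5.95) and ITGA3 (−4.57) and the leukocyte integrin chain ITGB7, which was low in both lines at up to 2.69 (−5.44, and −9.24 without the SK-MEL-28 siNC library), and on the higher side was ITGB3, the β chain of the vitronectin receptor (1.96). Among matrix proteases 12 of 27 (44.4%) were higher and 11 (40.7%) lower, against 33.8% and 35.0% of all genes. The lysosomal collagenase CTSK was at 4.03 and 5.58 in A375 and 152 and 163 in SK-MEL-28 (5.04), and the membrane-bound MMP14 was higher in SK-MEL-28 too (2.71). The gelatinase MMP2 was at 202 and 332 in A375 and 6.91 and 7.17 in SK-MEL-28 (−5.21), while MMP9 had 144 and 154 counts in A375 and none in SK-MEL-28, at least 88.1-fold lower with 3 counts over both libraries as the floor.

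**Figure D3:**
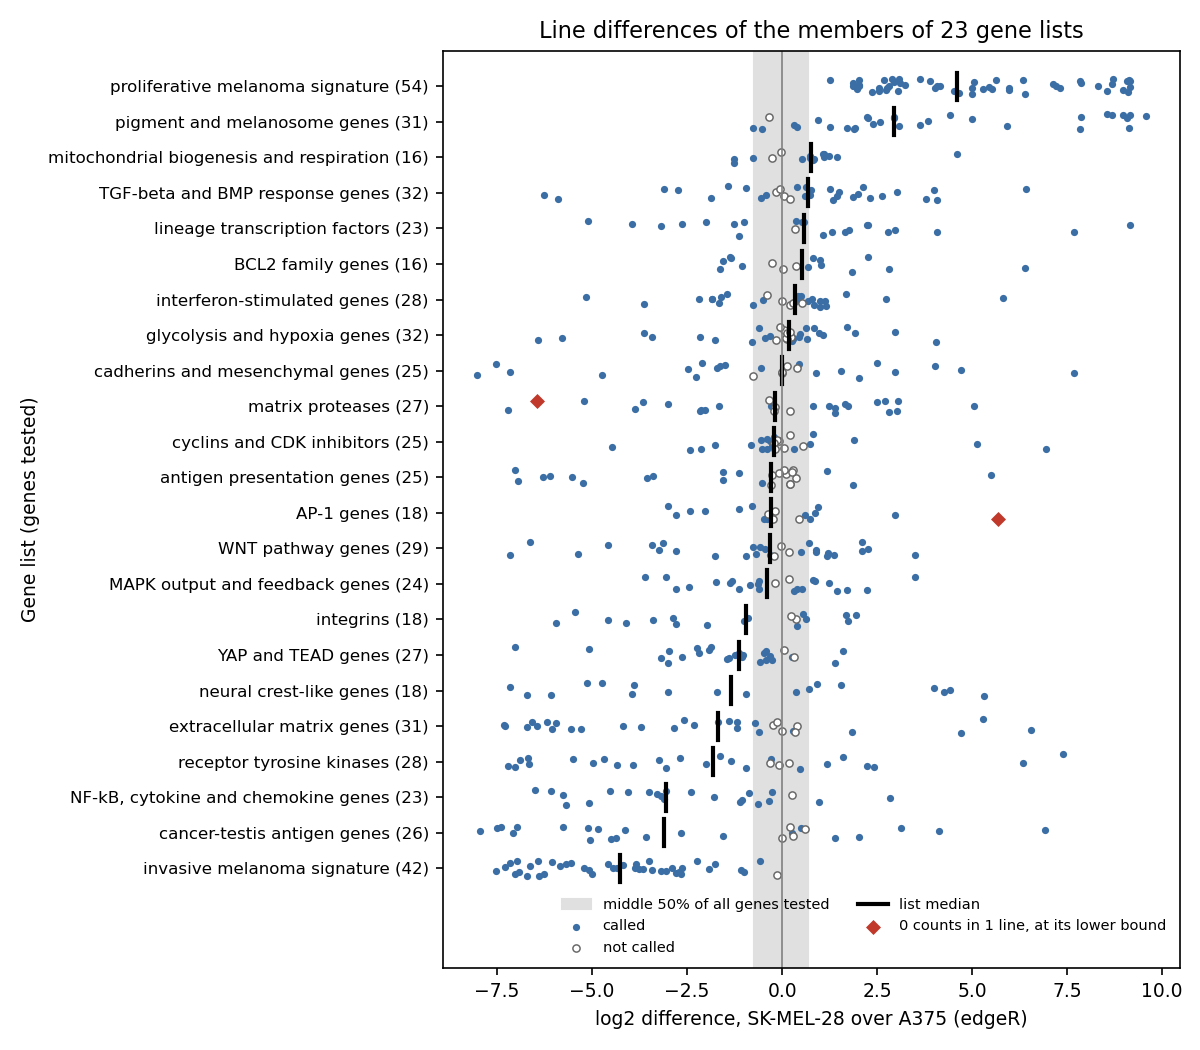
Log2 difference between SK-MEL-28 and A375 (horizontal axis, edgeR) of every tested member of 23 gene lists (rows, with the number tested), filled where called and open where not, with the list median as a bar and the middle 50% of all genes in grey. The medians run from −4.26 for the invasive signature to 4.59 for the proliferative signature, and MMP9 and BATF, without counts in 1 line, are drawn at their lower bound.

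Signalling outputs differed by pathway. MAPK output genes were divided, 10 of 24 (41.7%) higher and 12 (50%) lower in SK-MEL-28, against 33.8% and 35.0% of all genes. Fewer were called higher without the A375 siNC library. DUSP6 was at −1.37, DUSP4 at 0.82, ETV5 at 1.71 and SPRED3 at −3.60. MYC was read at 18.1 and 17.5 in A375 and 190 and 210 in SK-MEL-28 (3.49). The AP-1 subunit FOSL1, known for the invasive state, was at 584 and 497 in A375 and 92.4 and 65.7 in SK-MEL-28 (−2.79), while FOS was higher in SK-MEL-28 (2.98). BATF, an AP-1 factor of lymphocytes, had no counts in A375 and 41 and 96 in SK-MEL-28, at least 51.5-fold higher. YAP and TEAD genes were called lower in SK-MEL-28 in 22 of 27 cases and higher in 3, against 35.0% and 33.8% of all genes. The list's median was −1.14. The coactivator WWTR1 (TAZ) was at 546 and 602 in A375 and 196 and 128 in SK-MEL-28 (−1.86). Of the DNA-binding partners, TEAD1 was higher (1.62), TEAD3 and TEAD4 were called lower, and TEAD2 was not called. CCN1, a YAP target, was at 108 and 123 in A375 and 31.8 and 9.91 in SK-MEL-28 (−2.65, from −3.53 to −1.87 when single libraries were left out).

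In the WNT pathway 11 of 29 genes (37.9%) were higher and 15 (51.7%) lower, against 33.8% and 35.0% of all genes. The nuclear factors LEF1 (2.25), TCF7 (2.12) and TCF7L1 (2.11) were higher in SK-MEL-28, while TCF7L2 was called lower. The feedback gene AXIN2 (3.49) was higher too, and the secreted inhibitors DKK1 (−4.57), DKK3 (−5.37) and SFRP1 (−3.23) were lower. AXIN2 was low in both lines, with 12 and 9 counts in A375 and 93 and 120 in SK-MEL-28. DKK1 was at 210 and 166 in A375 and 17.3 and 2.59 in SK-MEL-28, and its difference ranged from −6.17 to −3.45 when single libraries were left out. Of 32 TGF-β and BMP genes 19 (59.4%) were called higher and 9 (28.1%) lower, against 33.8% and 35.0% of all genes, a difference that was not tested. The ligand BMP7 was at 0.837 and 0.917 in A375 and 73.1 and 77.0 in SK-MEL-28 (6.41), and the BMP-induced inhibitors of differentiation ID2 (3.99), ID3 (2.0) and ID4 (4.07) were higher, while ID1 was lower (−0.94). The activin subunit INHBA (−5.89) and the activin antagonist FST (−6.26) were both lower in SK-MEL-28.

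Inflammatory genes were lower in SK-MEL-28, with 20 of 23 tested NF-kB, cytokine and chemokine genes called lower and 2 higher. These shares were 35.0% and 33.8% over all genes, and the list's median was −3.05. CXCL1, a neutrophil chemokine, was at 46.6 and 41.6 in A375 and 4.26 and 1.40 in SK-MEL-28 (−4.04), and IL24 (−5.76), IL11 (−5.69) and LIF (−3.05) were lower too. CCL20 (2.85) and ICAM1 (0.97) were the 2 called higher. MHC class II genes were read in A375 but hardly in SK-MEL-28. The class II transactivator CIITA was at 118 and 140 in A375 and 2.61 and 4.33 in SK-MEL-28 (−5.23), the invariant chain CD74 at 975 and 1139 against 7.51 and 8.57 (−7.04), and HLA-DRA at 192 and 232 against 1.69 and 1.75 (−6.94). Of the class I heavy chains HLA-E (1.18) and HLA-F (5.49) were higher and HLA-B (−1.55) and HLA-C (−1.14) lower in SK-MEL-28, values that are uncertain because near-identical HLA genes can share reads. B2M, the shared light chain, was not called, at 398 and 455 in A375 and 458 and 451 in SK-MEL-28 (0.10). Of 28 interferon-stimulated genes 13 (46.4%) were higher and 10 (35.7%) lower, against 33.8% and 35.0% of all genes. BST2 (5.82) and IFI6 (2.74) were on the higher side and IFITM2 (−5.16) and MX2 (−3.63) on the lower.

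Germline antigens that melanomas express also differed. Of 26 tested cancer-testis genes 15 were called lower and 7 higher in SK-MEL-28, against 35.0% and 33.8% of all genes. Calls of at least 16-fold lower numbered 12, against 6.06% of all genes. MAGEA4 was at 716 and 794 in A375 and 4.68 and 6.61 in SK-MEL-28 (−7.07), and MAGEC2 (−7.49) and PAGE5 (−7.41) were lower too. MAGEC1 (6.92), MAGEA1 (4.12) and PRAME, at 130 and 124 in A375 and 546 and 490 in SK-MEL-28 (2.02), were higher. MAGE, PAGE and related families hold near-identical copies, so reads may be divided among their members.

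Of 25 tested cyclins, CDKs, CDK inhibitors and other cell-cycle genes, 6 were called higher and 12 lower in SK-MEL-28, against 33.8% and 35.0% of all genes. The 12 lower fell to 6 without the A375 siNC library, 7 without the A375 siLINC00622 library and 6 without the SK-MEL-28 siLINC00622 library. The proliferation genes MKI67 (−0.23), CDK1 (−0.25) and E2F1 (−0.31) were among the lower calls, but each lost its call whichever library was left out, with values from −0.52 to −0.04, and CCNB2 (−0.40) lost its call in 3 of these 4 fits. The 4 largest differences of the list were those of CDK inhibitors. CDKN2A, which encodes the inhibitors p16 and p14ARF, was at 2.78 and 2.73 in A375 and 92.4 and 99.5 in SK-MEL-28 (5.12), and its neighbour on chromosome 9, CDKN2B, had 7 and 4 counts in A375 and 599 and 626 in SK-MEL-28 (6.94). The use of strand in counting is not stated, so reads of CDKN2B and of its antisense RNA CDKN2B-AS1 cannot be told apart. MTAP, which lies on the other side of CDKN2A, ran the other way, at 195 and 146 in A375 and 59.2 and 41.3 in SK-MEL-28 (−1.77). CDKN1A (p21) was at 143 and 210 in A375 and 7.67 and 7.92 in SK-MEL-28 (−4.48). CDK2 was higher (1.90) and CDK6 lower (−2.12) in SK-MEL-28, whereas the G1 cyclin CCNE1 was not called (−0.09). CCND1 differed less between the lines than within them, at 824 and 445 in A375 and 1115 and 501 in SK-MEL-28 (0.30). Its level was higher in SK-MEL-28 within each treatment, and the direction turned without the A375 siLINC00622 library (−0.03) or the SK-MEL-28 siNC library (−0.33), fits that have no treatment term and so compare unequal treatments.

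**Figure D4:**
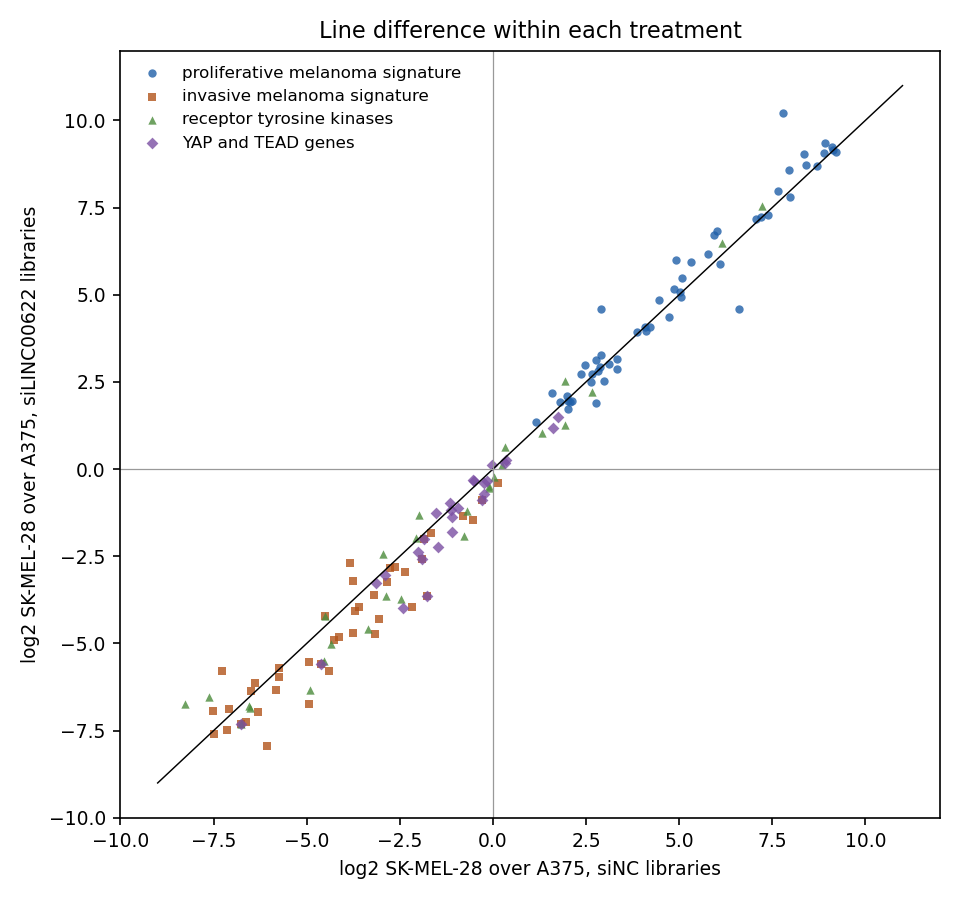
Log2 ratio of SK-MEL-28 over A375 in the siLINC00622 pair (vertical) against the siNC pair (horizontal) for the members of 4 lists, with the diagonal marking equal ratios. All 54 proliferative genes lie in the upper right quadrant, 41 of 42 invasive genes and 26 of 27 YAP and TEAD genes have the same sign in both pairs, and the points scatter around the diagonal.

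Of 16 tested genes of mitochondrial biogenesis and respiration, 11 were called higher in SK-MEL-28 and 3 lower, against 33.8% and 35.0% of all genes. The regulators among the 16 went both ways. PPARGC1A, the coactivator PGC1α and a known MITF target, was at 0.926 and 2.41 in A375 and 19.4 and 63.6 in SK-MEL-28 (4.60), and PPARGC1B (0.85), ESRRA (0.73) and PPARA (1.44) were higher as well. The coactivator PPRC1 (−0.76) and the mitochondrial transcription factors TFB1M (−1.26) and TFB2M (−1.27) were lower, and NRF1 (−0.27) and TFAM (−0.02) were not called. The other 7 genes called higher were effectors, among them CYCS, cytochrome c (1.11), and SDHB, a subunit of respiratory complex II (1.10). Of the 13 protein-coding genes of the mitochondrial genome, 12 were called higher in SK-MEL-28, against 33.8% of all genes. The log2 differences of the 13 ran from 0.22 to 1.83, with a median of 0.87. Of 32 glycolysis and hypoxia genes 14 (43.8%) were higher and 10 (31.2%) lower, near the 33.8% and 35.0% of all genes. HK2, the hexokinase of many tumours (1.92), PFKFB4 (1.70), the hypoxia-inducible factor EPAS1 (2.97) and the hypoxia-induced hydroxylase EGLN3 (4.05) were higher, and the glucose transporter SLC2A1 (−1.77), the lactate exporter SLC16A3 (−2.17) and the hypoxia-induced genes ADM (−6.43) and NDRG1 (−3.64) were lower. Among BCL2 family genes BCL2A1, a survival factor and MITF target, was at 0.627 and 0.341 in A375 and 40.7 and 39.1 in SK-MEL-28 (6.38), and MCL1 was at 580 and 525 in A375 and 180 and 173 in SK-MEL-28 (−1.65).

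The 10 largest differences per direction were taken among genes with a mean of at least 20 normalised CPM in the higher line. They included few of the state markers. IRF4 (9.16), DCT (9.15) and TYR (9.13) were close to the smallest of the upward ones (9.28). CDH13 (−7.52) was close to the smallest of the downward ones (−7.69). Higher in SK-MEL-28 were SCML4, with 1 count in A375 and 2023 in SK-MEL-28, the lincRNAs LINC01531 (9.96), LINC01918 (9.47) and LINC00504 (9.28), the antisense RNA LHFPL3-AS1 (9.38), ARMCX2 (9.91), SLC24A5, the tyrosine kinase SYK (9.55), CYP7B1 (9.51) and the assembled transcript MSTRG.3021 (9.64). SYK, better known from blood cells, was read at 0.149 and 0.0524 in A375 and 71.3 and 81.0 in SK-MEL-28. Lower in SK-MEL-28 were LINC02582 (−8.90), AJAP1 (−8.62), LINC02864 (−8.23), FAM171A1 (−8.16), the aminopeptidase ANPEP (−8.08), GDA (−8.06), ROBO4 (−8.00), VIPR1 (−7.93), AMIGO2 (−7.82) and TRHDE (−7.69). ANPEP was read at 229 and 301 in A375 and 0.828 and 1.12 in SK-MEL-28. Genes with at least 100 normalised CPM in 1 line and less than 1% of that level in the other were never at 0 there. The 27 such genes of SK-MEL-28 had a median of 0.255% and a lowest value of 0.146% in A375, and the 28 of A375 a median of 0.723% and a lowest value of 0.368% in SK-MEL-28. Whether such low counts arose in the cells of that line was not tested, and they bear on the low A375 values of TYR, PMEL, DCT and MLANA and the low SK-MEL-28 values of AXL and THBS1.

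At a stricter contrast, with at least 5 normalised CPM in both libraries of 1 line and at most 3 counts summed in the other, 46 genes were read in A375 alone and 39 in SK-MEL-28 alone, 28 and 14 of them protein-coding. Those of A375 included the homeobox genes NKX2-5, HOXC11 and HOXC12, the last pair being neighbours, the desmosomal cadherin DSC3 and the neighbouring protocadherin genes PCDHA5, PCDHA6 and PCDHA7. The PCDHA family holds near-identical copies, so reads may be divided among its members. Those of SK-MEL-28 included the proline transporter SLC6A7, the G-protein regulator RGS1 and the inflammasome adaptor PYCARD. These names were chosen after their values were seen. PYCARD had 1 and 2 counts in A375 and 189 and 170 in SK-MEL-28.

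The line difference also varied by chromosome. The median log2 difference was 0.77 over 386 tested genes of chromosome 22, where 252 were called higher. On chromosome 2 it was 0.54 over 1044 genes, of which 594 were called higher, against 33.8% of all genes. The median was lowest for chromosome 16 (−0.36 over 726 genes), chromosome 9 (−0.34 over 637) and chromosome 13 (−0.32 over 299). For all genes it was −0.03. SOX10 is on chromosome 22 and its difference was below that chromosome's median, from 0.18 to 0.54 when single libraries were left out. DNA copy number was not measured here, and whether it differs between the lines on these chromosomes was not tested.

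**Figure D5:**
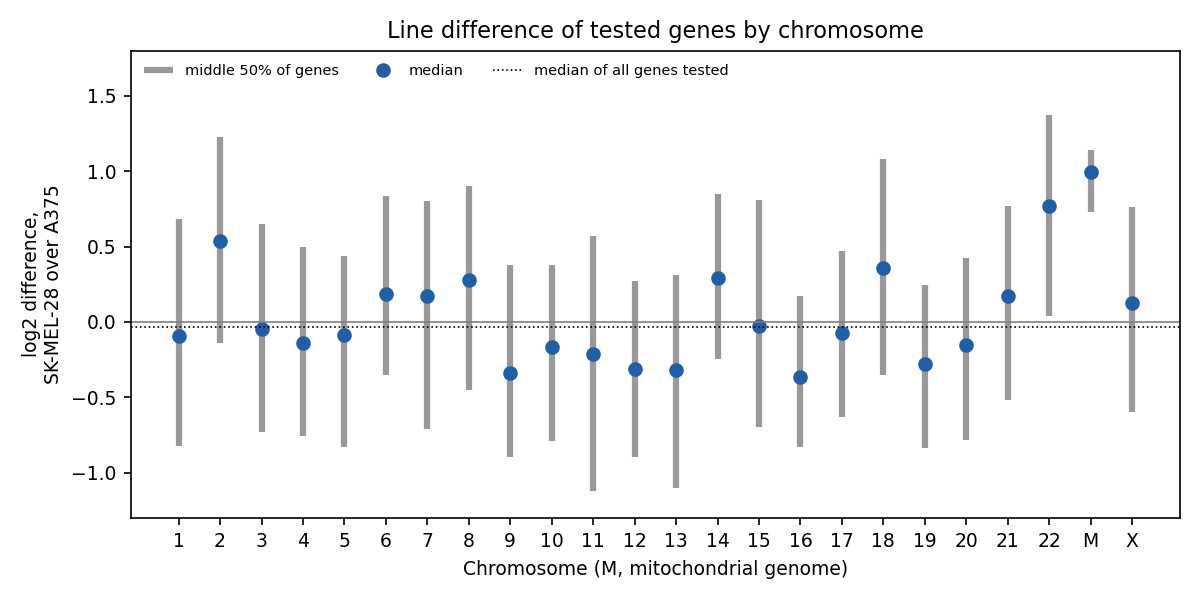
Log2 difference between SK-MEL-28 and A375 of the tested genes by chromosome (M, the mitochondrial genome), with points for the median, bars for the middle 50% of genes and a dotted line for the median of all genes. Chromosomes 22 and 2 have the highest nuclear medians, 0.77 and 0.54, and chromosome 16 the lowest, −0.36.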

How the data were processed

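Poly(A) RNA-Seq libraries of A375 and SK-MEL-28 cells were assigned to lines and treatments from their labels, and gene IDs, gene counts and FPKM came from 1 table of the whole series. The deposited values were raw counts per gene and FPKM, which the authors scaled to gene length and depth. Library totals were taken from the deposited CPM, and the deposited TPM were not used. The submitters' processing notes name hg19, HISAT2, TopHat2, Bowtie2 and HISAT without their roles, and versions are not given in the sources used here. Of 17755 listed IDs, 17535 were Ensembl genes and 220 were assembled transcripts (MSTRG), and 17332 matched GENCODE 29, which was used for chromosomes, gene order and gene types. Promoter sequences came from RefSeq (GRCh38.p14), a build other than that of the files.

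Counts were tested with edgeR 4.0.16 (R 4.3.3, TMM factors 0.939 to 1.07, quasi-likelihood F-test, Benjamini-Hochberg adjustment) with terms for line and treatment, on 16310 genes with at least 10 counts in at least 2 libraries. The common dispersion was 0.00895, and 1 residual degree of freedom per gene was supported by a prior of 5.56 degrees of freedom shared across genes. Levels are TMM-normalised CPM computed from the deposited counts, and a call is an adjusted p below 0.05. Log2 differences are SK-MEL-28 over A375. In data simulated for SK-MEL-28 against A375 over 16193 genes, edgeR recovered 97 of 100 planted 2-fold and 100 of 100 planted 4-fold changes. It called 11 unchanged genes. Changes were planted in well-counted genes at a fixed dispersion of 0.01 and without any treatment effect. Far fewer genes were changed than were called in the data, so these figures do not measure the error of the calls here. Leaving-out fits had no treatment term.

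The gene lists, the members and the tests were chosen with earlier results of these data known. The genes named were the 4 markers, up to 6 called members per list and direction by size of the difference, and the 10 largest differences per direction at a mean of at least 20 CPM. Further list members are named for their known role, after their values were seen. The results of 1 list and of some genes that this rule names are not reported here. Alternatives were other scalings (library totals, DESeq2 size factors), DESeq2 1.42.0, limma 3.58.1 on log2(FPKM + 1) or log2(FPKM + 0.1), other count filters, another prior count, no treatment term, other thresholds and leaving out each library.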

Additional observations from a re-analysis of the deposited data

Results flagged for a closer look

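The level of 3 abundant genes differed between the lines in opposite directions in the 2 treatments, beyond counting error in each pair. Counting error leaves out the spread between separate libraries. These 3 were not alone, since 14692 of 16302 genes kept 1 direction in both pairs and the rest did not. VIM had a log2 difference of 0.22 in the siNC pair and −0.24 in the siLINC00622 pair, SPARC had 0.13 and −0.15, and TRAM2 had 0.13 and −0.39. With 1 library per line and treatment, the difference between the pairs was not tested. None of the 3 was called over both pairs (edgeR).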

How the results depend on the processing

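Calls of higher and lower genes stayed within 1.5 times of 5512 and 5710 under each alternative fit. They were 4612 and 6750 with library totals, 4455 and 4246 with DESeq2, and 4662 and 6810 with limma on log2(FPKM + 0.1), and leaving out single libraries gave 3954 to 4844 higher and 4127 to 4945 lower. Library totals shifted the median of all genes by −0.17 and FPKM with a pseudocount of 0.1 by −0.15, and the share of calls that were higher was 49.1% with TMM and 40.6% with library totals. A 2-fold minimum left 2892 higher and 3133 lower. At 1 CPM, 129 genes were read in SK-MEL-28 alone and 231 in A375 alone, and with 0 counts in the other line and 5 CPM the counts were 2 and 2. Over the named genes, 4301 alternative values kept direction and side of the threshold, 120 lost a call, 1 gained one and 16 changed sign. The direction of CCND1 turned, with values from −0.33 to 0.86 when single libraries were left out. With limma on log2(FPKM + 1), where the pseudocount shrinks differences of low genes, list medians were 2.77 for proliferative, −2.23 for invasive and −1.18 for inflammatory genes. Uncalled genes near 0 also turned. With DESeq2 size factors in edgeR and with DESeq2, VIM was at 0.00896 and 0.00894 and SPARC at 0.0119 in both. Without the treatment term VIM was at 0.00662. B2M was at −0.0695 with library totals, and with limma at −0.0686 on log2(FPKM + 1), over the tested as over all listed genes, and at −0.0693 on log2(FPKM + 0.1). Leaving out single libraries gave −0.22 to 0.20 for VIM, −0.21 to 0.20 for SPARC and −0.38 to 0.13 for TRAM2. BATF was not called by DESeq2 (adjusted p = 0.0719, 1.21e-07 to 0.0719 over its alternatives). The cause of these changes was not tested. Each line rests on 2 libraries. The 95% counting interval (exact Clopper-Pearson, counting error only) of the low gene TYRP1 was 2.07 to 3.88 in the siNC pair and 3.43 to 6.07 in the siLINC00622 pair.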
